A study of Mus musculus with 6 samples.

Results

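Mice of the BTBR strain and of C57BL/6J carry different haplotypes of the major histocompatibility complex (MHC, called H2 in the mouse), and the genes of antigen presentation were compared between them in the prefrontal cortex. The members are the array probes whose gene name begins with H2-, together with those for B2m, Tap1, Tap2, Tapbp, Cd74, Ciita, Psmb8, Psmb9 and Psmb10. They are 73 of the array's 41174 probes for genes, and their 48 gene names are among 27373 on the array. Of the 73 probes, 63 lie on chromosome 17, which holds the MHC. By gene name, 7 probes are for classical class I genes, 33 for non-classical class I genes, 18 for class II genes and 13 for the genes that process and load antigen. The other 2 probes, for H2-Ke2 and H2-Ke6, share the prefix only, since these genes of the region encode no MHC molecule.

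RNA came from whole prefrontal cortex of 3 C57BL/6J mice and 3 BTBR mice, each on an Agilent array of its own with Cy3-labelled RNA. C57BL/6J is the reference inbred strain of the mouse. BTBR T+ Itpr3tf/J is an inbred strain studied for its low sociability and repetitive grooming, and its tf allele of Itpr3 also lies on chromosome 17. All mice were untreated males 5 months old, and RNA integrity was 9. The labels of the BTBR mice give BTBR T+ Itpr3tf/J as genotype and BTBR in the titles, but C57BL/6J in the field for background. Nothing in the labels separates the haplotype from the rest of the strain's genome, so their contributions cannot be told apart. Whole tissue also mixes cell types, and in it fewer cells of a type and less RNA per cell cannot be told apart.

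Class I molecules present peptides from inside the cell to CD8 T cells. The classical ones (H2-K, H2-D, H2-L) are highly variable between strains, and the non-classical ones of the Q, T and M regions vary less or serve special receptors. Proteasome subunits cut the peptides, the Tap transporter carries them into the endoplasmic reticulum, tapasin (Tapbp) loads them, and B2m is the light chain of nearly all class I molecules. Class II molecules (H2-A and H2-E, each an alpha and a beta chain) present endocytosed peptides to CD4 T cells. Cd74 is their chaperone, H2-DM and H2-O adjust their loading, and Ciita is their master activator. In brain, class II is known mainly from microglia and from macrophages and dendritic cells at the borders. C57BL/6J is of the H2b haplotype, which carries no H2-L and makes no H2-E alpha chain, while BTBR is recorded as H2bc.

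The probes are 60 bases long, and related class I genes are close enough that 1 probe can share most of its bases with another gene's. The sequences below show how far that goes for some probes of the results, where they are set against another probe. A strain difference at a probe was measured from its array signal, and the letters compare probes with each other, not strains. The H2-T22 probe A_51_P432538, which also enters the results, is not printed. Capitals mark bases that differ from the other probe of the same set where they align, and a probe shown without capitals was set against no other. Positions are those of the files, in mm9.
The H2-Bl probe A_52_P350519 (chr17:36220441-36220687, minus strand): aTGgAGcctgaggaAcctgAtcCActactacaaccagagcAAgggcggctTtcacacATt
An H2-K1 probe A_52_P474242 (chr17:34136478-34136724, minus strand): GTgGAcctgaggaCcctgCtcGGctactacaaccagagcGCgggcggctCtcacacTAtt
An H2-T22 probe A_52_P197826 (chr17:36178425-36178484, minus strand): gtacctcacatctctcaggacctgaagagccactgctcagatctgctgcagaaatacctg
An H2-T22 probe A_51_P432544 (chr17:36177222-36177429, minus strand): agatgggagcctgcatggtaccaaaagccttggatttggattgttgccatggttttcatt
The H2-L probe A_52_P313279 (chr17:35403132-35403191, plus strand): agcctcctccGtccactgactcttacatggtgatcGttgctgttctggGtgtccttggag
The H2-Q2 probe A_51_P219789 (chr17:35482113-35482172, plus strand): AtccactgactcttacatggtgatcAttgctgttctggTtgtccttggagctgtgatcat
An H2-Ab1 probe A_51_P215242 (chr17:34401723-34401782, plus strand): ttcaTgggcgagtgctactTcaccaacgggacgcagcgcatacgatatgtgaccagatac
An H2-Ab1 probe A_52_P570717 (no position in the files): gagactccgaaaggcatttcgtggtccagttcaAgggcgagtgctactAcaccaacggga
The H2-Ea-ps probe A_51_P222741 (chr17:34481469-34481528, minus strand): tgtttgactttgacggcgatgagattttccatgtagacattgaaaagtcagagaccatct

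H2-Bl and H2-K1 shared 46 of 59 aligned bases, and H2-L and H2-Q2 shared 47 of 50. Among the other pairs, H2-Q7 and H2-T23 shared 50 of 59 bases. H2-Q10 (A_51_P230267) shared 38 of 46 with H2-Q7. Both H2-Ab1 probes lie over the same stretch of the gene and come from different cDNAs, with 29 of 31 shared bases alike. The H2-Bl and H2-K1 probes each span 247 bases of the genome with 60 bases of sequence, as a probe across a splice junction does. Exon and untranslated region annotation of this build was not used here. The BTBR alleles under the probes were not analysed here either, so a difference in RNA amount and a difference in binding to an allele cannot be told apart for any member.

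Values are log2 of the background-subtracted signal minus the array's 75th percentile, so that 0 is the 75th percentile of that array, and values are given for C57BL/6J mice 1, 2 and 3 and BTBR mice 1, 2 and 3 in this order. A difference is BTBR minus C57BL/6J. The scanner marks each spot as well above its background or not. Probes so marked on 3 or more of the 6 arrays were tested, 53 of the 73 members among them, and were called at an adjusted p under 0.05 in limma over all 30011 tested probes. Of the 20 untested members, 15 had the mark on 0 arrays. The arrays held 28101 to 30665 probes well above background. The 75th percentile signal was 1209 to 1607 in C57BL/6J and 859 to 1184 in BTBR, so the BTBR arrays were dimmer before scaling. The precision is limited by the number of arrays, 3 per strain.

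Of the 53 tested members 3 were called, 1 higher and 2 lower in BTBR. That is 5.66%, beside 5.44% of all tested probes (2.19% higher and 3.25% lower), so the members as a whole were called about as often as any probe. The median difference was -0.05 over the members and 0.04 over all tested probes. In 11 members the strains' values did not overlap, beside 22.8% of all probes. With normexp background correction, in place of the scanner's own subtraction, 0 members were called and 170 of all probes in place of 1632, with 74.1% of them lower in BTBR in place of 59.7%. All 3 calls were in the non-classical class I genes, where 3 of 20 tested probes were called. No member was called by limma among 7 classical class I, 12 class II and 12 processing probes. At an unadjusted p under 0.05 the counts were 0, 0 and 1 for these classes and 8 of all 53 members, beside 16.8% of all probes.

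**Figure D1:**
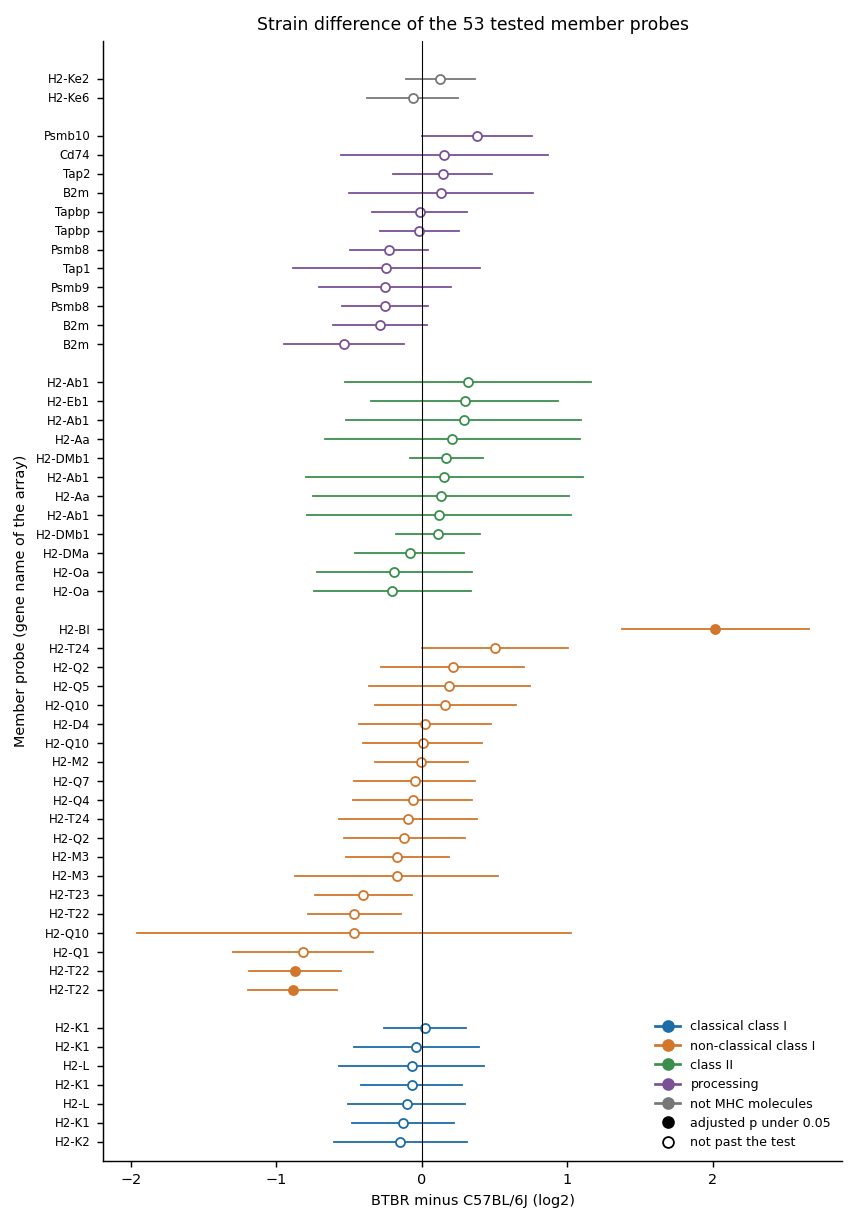
Difference between strains for the 53 tested member probes, BTBR minus C57BL/6J on the log2 scale (horizontal axis), 1 row per probe and grouped by class, with 95% intervals of the fit from 3 mice per strain; filled points passed the test. The filled points are H2-Bl at 2.02 and H2-T22 probes at -0.89 and -0.87, and the widest intervals after that of an H2-Q10 probe are those of H2-Ab1 and H2-Aa.

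The classical class I genes, which present peptides on nearly every cell, were measured on all arrays and not called in any of 7 probes. The brightest of them, the H2-L probe A_52_P313279, read 2.64, 2.77 and 2.75 in C57BL/6J and 2.53, 2.37 and 2.95 in BTBR. BTBR mouse 3 was the highest of all 6 and BTBR mouse 2 the lowest, so the strains overlapped. C57BL/6J is known to carry no H2-L gene, yet both probes of that name were bright in it, and the one printed above differs from the H2-Q2 probe at 3 of the 50 shared bases. H2-Q2 at that probe read 2.33, 2.47 and 2.38 against 2.19, 2.005 and 2.62, with the same mice at either end. The H2-K1 probe A_51_P198434 read 2.35, 2.28 and 2.25 against 1.98, 2.07 and 2.44. BTBR mouse 3 again stood above all others.

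Differences of the 7 classical probes ran from -0.15 (H2-K2) to 0.02 (an H2-K1 probe), with adjusted p from 0.758 to 0.966. H2-K2 is counted here by its name, though RefSeq lists it as a non-coding transcript. The 95% intervals ran from -0.60 to 0.43, so that in all 7 a change of 2-fold either way lay outside. Each slide held both strains (replicates 1 and 2 on slide 1, replicate 3 on slide 2). The median difference of these probes was -0.25 on slide 1 and 0.19 on slide 2, and none of the 7 had the same sign on both slides. With the slide as a block or on slide 1 alone, 0 of 7 were called. No member probe bears the name H2-D1, and which gene the H2-L probes read in either strain was not tested.

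Of the 24 non-classical class I genes, 13 had a tested probe. The largest difference among all members was at H2-Bl, a gene of the T region with the name blastocyst MHC. It read -3.54, -3.36 and -3.51 in C57BL/6J and -1.58, -1.93 and -0.86 in BTBR. Every BTBR mouse lay above every C57BL/6J mouse, and the BTBR mice spread more widely. The mean was -3.47 ± 0.10 (SD, n = 3) in C57BL/6J and -1.45 ± 0.54 (SD, n = 3) in BTBR. The difference was 2.02 ± 0.27 (SE), or 4.04-fold, with an adjusted p of 0.00859 in limma. It was 1.70 on slide 1 and 2.65 on slide 2. With normexp background correction it was 1.27 and no longer called (adjusted p 0.453). In the authors' deposited matrix it was 1.05 (adjusted p 0.0366 in limma).

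A probe known only by the code TC1586030 lies 3292 bases from the H2-Bl probe (chr17:36217089-36217148, minus strand) and was named here after its values were seen. It read -2.27, -3.11 and -3.39 in C57BL/6J and -0.21, -0.51 and 0.44 in BTBR. The strains did not overlap, and the order of the BTBR mice was that of H2-Bl, with mouse 3 highest and mouse 2 lowest. The difference was 2.83 ± 0.36, or 7.10-fold, with an adjusted p of 0.00682 in limma. In the authors' matrix it was 1.82 (adjusted p 0.00825).

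H2-T22, a T region molecule known as a ligand of gamma delta T cells, was lower in BTBR at 2 of its 3 probes. Probe A_51_P432538 read 1.81, 1.76 and 1.57 in C57BL/6J and 0.67, 0.87 and 0.99 in BTBR. Probe A_52_P197826 read -1.17, -0.93 and -1.14 against -1.96, -2.12 and -1.83. In both, all BTBR mice lay below all C57BL/6J mice with a gap wider than the spread of either strain. The differences were -0.87 ± 0.13 (adjusted p 0.0139 in limma) and -0.89 ± 0.13 (adjusted p 0.0114). The third probe, A_51_P432544, read -0.74, -0.45 and -0.49 against -1.12, -1.10 and -0.86. Its strains did not overlap either, and its difference of -0.47 did not pass the test (adjusted p 0.125).

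The H2-T22 differences had the same sign on both slides, at -1.02 and -0.58 for A_51_P432538 and -0.99 and -0.69 for A_52_P197826. Their calls were nearer to the threshold than that of H2-Bl. Without C57BL/6J mouse 2 the adjusted p rose to 0.0704 and 0.0536, and without BTBR mouse 1 to 0.0685 and 0.063. Without C57BL/6J mouse 1 it rose to 0.0628 for A_51_P432538 alone. H2-T22 has a near-identical paralog, H2-T10, which is not analysed here, and reads of these probes may come from either gene.

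**Figure D2:**
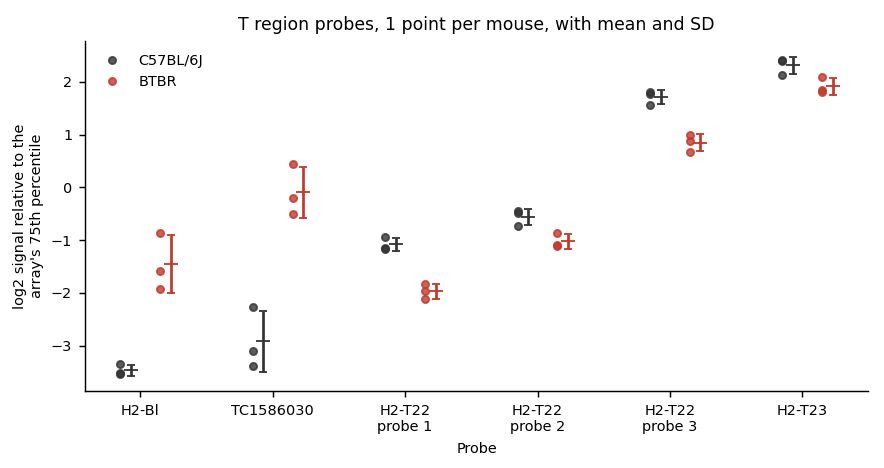
Log2 signal relative to the array's 75th percentile (vertical axis) for 6 probes of the T region, 1 point per mouse, with the mean and SD of 3 mice beside the points; black is C57BL/6J and red is BTBR, and H2-T22 probes 1, 2 and 3 are A_52_P197826, A_51_P432544 and A_51_P432538. H2-Bl and TC1586030 are higher in all 3 BTBR mice, and the 3 H2-T22 probes and H2-T23 are lower in all 3.

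H2-T23, which encodes Qa-1, the ligand of the inhibitory receptor CD94/NKG2A, read 2.40, 2.42 and 2.13 against 1.84, 1.80 and 2.10. The strains were separated by 0.03 between C57BL/6J mouse 3 and BTBR mouse 3, the mice of slide 2. Its difference of -0.40 did not pass the test (adjusted p 0.203). H2-Q1 read -3.43, -3.76 and -2.99 against -4.25, -4.25 and -4.12, with no overlap. Its difference was -0.82 ± 0.20 and did not pass the test (adjusted p 0.0805).

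The brightest non-classical probe, A_51_P496997 for H2-Q10, read 2.39, 2.63 and 2.54 against 2.41, 2.31 and 2.85, and its difference was 0.00 (adjusted p 0.995). Probes of that name disagreed widely in level. The C57BL/6J mean was 2.52 at A_51_P496997, -0.52 at A_52_P428354 and -6.08 at A_52_P112219. Which gene the brightest of them reads was not tested. The other tested non-classical probes, for H2-D4, H2-M2, H2-M3, H2-Q2, H2-Q4, H2-Q5, H2-Q7, H2-T24 and 2 more for H2-Q10, had differences from -0.47 to 0.50. H2-D4 is counted here by its name, though it is a gene of the D region. A further T region probe, for the transcript C920025E04Rik that RefSeq now names H2-T-ps, falls outside the rule and differed by -0.14 (adjusted p 0.769).

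Of the 13 untested non-classical probes, 9 had the mark on 0 arrays. They are for H2-M1, H2-M9, H2-M11, H2-T18 and all of the H2-M10 genes but H2-M10.2, a family known from vomeronasal sensory neurons. H2-M10.2 was well above background on 1 array of each strain, and H2-T3 on 1 BTBR array. Both remaining probes are for H2-Q10, which encodes a class I molecule that the liver secretes. Probe A_51_P230267 read -7.34, -3.82 and -8.07 in C57BL/6J and -8.23, -7.66 and -7.75 in BTBR. Probe A_51_P230269 read -8.76, -3.87 and -7.48 against -8.60, -7.98 and -8.98. Only C57BL/6J mouse 2 was well above background, at 3.52 and 3.61 log2 units above the next array. The bound for A_51_P230267 over all 3 C57BL/6J mice was at least 1.03-fold higher than in BTBR, where it was not well above background. It rests on that 1 of 3 arrays, and the 3 tested H2-Q10 probes were not high in that mouse alone.

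Other genes of the MHC region, from 33 to 38 Mb of chromosome 17, rarely differed. Of 223 tested probes that are not members 3 were called (1.35%), beside 63 of 1094 (5.76%) on the rest of the chromosome. They are TC1586030, Mog and Vars2. Mog, a myelin protein, read -3.83, -3.90 and -4.00 against -4.92, -4.78 and -4.74 at probe A_52_P169614, a difference of -0.90 (adjusted p 0.0059). In the authors' matrix that was -0.20 and not called (adjusted p 0.0823), and the other Mog probe, at -0.67, was not called. Vars2, a mitochondrial tRNA synthetase, had probes that disagreed. A_52_P185639 read 0.04, 0.14 and 0.06 against -0.48, -0.79 and -0.66, a difference of -0.73 (adjusted p 0.0194). A_52_P590235 differed by 0.21 and was not called. The Vars2 call was lost without C57BL/6J mouse 1 or 2 or BTBR mouse 2 or 3, each left out alone (adjusted p 0.0543 to 0.0929).

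**Figure D3:**
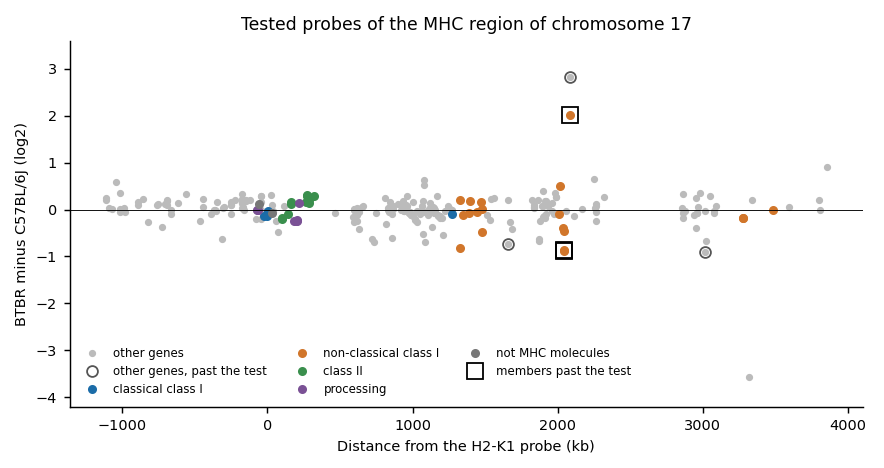
Difference between strains on the log2 scale (vertical axis) of the tested probes of the MHC region of chromosome 17 that have a position, against distance from an H2-K1 probe in kb (horizontal axis); grey points are genes that are not members, and outlined points passed the test. H2-Bl and TC1586030 stand together above 2, the outlined H2-T22 probes lie close by below 0, and the class II probes near the left lie within 0.32 of 0; the grey point at -3.58 did not pass.

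Class II showed no called probe and a large difference from mouse to mouse within each strain. H2-DMa, the brightest of the class, read -0.02, 0.16 and 0.44 against 0.24, 0.13 and -0.05, with full overlap. The H2-Ab1 probe A_52_P683598, for the beta chain of H2-A, read -1.08, -1.70 and -0.66 against -1.12, -0.30 and -1.15. BTBR mouse 2 was the highest and C57BL/6J mouse 2 the lowest. The other 3 H2-Ab1 probes ran in the same order at both ends, and so did both H2-Aa probes. H2-Eb1, the beta chain of H2-E, read -2.75, -3.20 and -2.21 against -2.52, -2.15 and -2.61. Cd74 read -0.20, -0.74 and 0.27 against -0.31, 0.34 and -0.24.

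In all 8 probes of H2-Aa, H2-Ab1, H2-Eb1 and Cd74, BTBR mouse 2 was highest, C57BL/6J mouse 3 second and C57BL/6J mouse 2 lowest. Highest and lowest were 1.05 to 1.47 log2 units apart. These 8 probes were singled out after their values were seen, and their genes share regulators and cells, so the probes are not separate observations. Their median SD within a strain was 0.54, larger than in 92.6% of all tested probes, whose median was 0.20. It was 0.22 for classical class I and 0.20 for H2-DMa, H2-DMb1 and H2-Oa. Ciita, which activates class II genes, was well above background on 1 array of each strain and stayed untested. It read -6.95, -7.36 and -6.33 against -7.70, -4.61 and -7.33, highest in BTBR mouse 2 and next in C57BL/6J mouse 3.

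**Figure D4:**
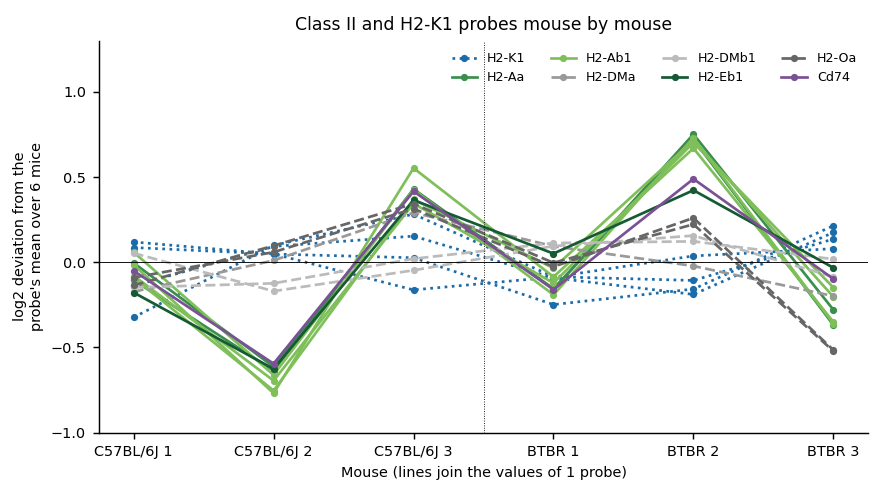
Deviation of each probe from its own mean over the 6 mice, on the log2 scale (vertical axis), by mouse (horizontal axis), with 1 line per probe; solid lines are H2-Aa, H2-Ab1, H2-Eb1 and Cd74, dashed lines H2-DMa, H2-DMb1 and H2-Oa, and dotted lines H2-K1. The solid lines fall in C57BL/6J mouse 2 and peak in BTBR mouse 2, with median deviations of -0.65 and 0.71, while the strains overlap.

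The 12 tested class II probes differed by -0.20 (H2-Oa) to 0.32 (H2-Ab1), with a median of 0.14 and adjusted p from 0.512 to 0.93. Their 95% intervals ran from -0.80 to 1.16, and 6 of the 12 left room for a 2-fold change. The median difference was 0.58 on slide 1, which held C57BL/6J mouse 2 and BTBR mouse 2, and -0.64 on slide 2, which held C57BL/6J mouse 3. None of the 12 had the same sign on both slides. The probe of H2-DMb2, that of H2-Ea-ps, both for H2-Eb2 and both for H2-Ob were at background in all 6 mice. H2-Ea-ps is the alpha chain of H2-E, and its probe, printed above, was at background in both strains.

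Markers of cells that carry class II were compared with these values. Of 12 probes for 8 microglia genes, 1 was higher (Cx3cr1, at 1 of its probes) and 1 lower (C1qb) in BTBR. That is 16.7% called, beside 5.44% of all tested probes. The summed level of the list was 4.94, 5.20 and 5.18 in C57BL/6J and 5.15, 5.19 and 4.96 in BTBR. C57BL/6J mouse 2, the lowest in H2-Aa, H2-Ab1, H2-Eb1 and Cd74, was highest here, closely followed by BTBR mouse 2. Of 8 probes for 6 border macrophage genes, 2 (25%) were lower in BTBR, for Pf4 (-0.96) and Ms4a7 (-0.64), beside 3.25% of all tested probes. When any 1 mouse was left out, 0 or 1 of the list were lower. The summed level was 0.52, 0.18 and 0.66 in C57BL/6J and -0.04, 0.02 and -0.07 in BTBR, without overlap. In C57BL/6J the sum was highest in mouse 3 and lowest in mouse 2, as H2-Aa, H2-Ab1, H2-Eb1 and Cd74 were. In BTBR it was highest in mouse 2, as these were, though the BTBR sums lay close together. The median deviation of all 8 probes from their own means was 0.15, -0.15 and 0.35 against -0.06, -0.16 and -0.23. By that measure the strains overlapped, and BTBR mouse 1 was the highest of its strain. The mean was higher in BTBR at 3 of the 8 probes. Of 9 dendritic cell probes 0 were called in limma (1 at an unadjusted p under 0.05), and Clec9a was at background in every mouse. The summed dendritic level was -1.24, -1.10 and -1.62 in C57BL/6J and -1.21, -1.39 and -1.26 in BTBR. In C57BL/6J mouse 2 was highest and mouse 3 lowest, and in BTBR mouse 2 was lowest. That is the reverse of H2-Aa, H2-Ab1, H2-Eb1 and Cd74 in these mice. Among B cell markers 0 of 3 probes were called (1 at an unadjusted p under 0.05), and Ms4a1 and Pax5 were at background in every mouse. Of 3 tested T cell probes 1 (33.3%) was higher, for Cd3d (1.12), beside 2.19% of all tested probes, while Cd8a was at background. Cd3d was dim, with means of -5.85 in C57BL/6J and -4.73 in BTBR. In the authors' matrix it differed by 0.17 and was not called (adjusted p 0.096 in limma). The tested Cd3e and Cd4 probes differed by 0.57 and -0.67 and were not called. The summed B and T cell levels were also highest in mouse 2 and lowest in mouse 3 in C57BL/6J. In BTBR both were highest in mouse 2. The part of any of these cells in the class II values was not tested.

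Among the 9 genes of processing and loading, 12 probes were tested and none called, with a median difference of -0.12. B2m, the class I light chain, at its brightest probe A_51_P129012, read 3.24, 3.23 and 2.91 against 2.72, 2.86 and 2.94. The strains overlapped only through C57BL/6J mouse 3 and BTBR mouse 3, and the difference was -0.29 (adjusted p 0.363). The other B2m probes disagreed, with -0.54 (adjusted p 0.169) at A_52_P105594 and 0.13 at A_51_P129006.

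The immunoproteasome subunits cut peptides to fit class I, and none of their 4 probes was called. Psmb8 at A_51_P345367 read -0.39, -0.13 and -0.07 against -0.51, -0.43 and -0.41, without overlap and with a difference of -0.25 (adjusted p 0.383). Psmb9 read -0.53, -0.51 and -0.52 against -1.04, -0.91 and -0.36. Here BTBR mouse 3 was above every C57BL/6J mouse and the other two BTBR mice below, and the difference of -0.25 did not pass. Psmb10 read 4.32, 4.42 and 3.89 against 4.60, 4.59 and 4.57, all BTBR mice higher, with a difference of 0.38 (adjusted p 0.3).

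The transporter subunit Tap1 read -4.31, -4.05 and -4.06 against -4.62, -4.76 and -3.78, and its difference was -0.24. Tap2 read -3.12, -2.76 and -2.74 against -2.62, -2.84 and -2.74, with a difference of 0.14. Tapbp, the loading chaperone, read 2.38, 2.39 and 2.37 against 2.41, 2.20 and 2.48, and differed by -0.02. All 12 intervals of this class lay within a 2-fold change either way. H2-Ke2, now Pfdn6, and H2-Ke6 differed by 0.13 and -0.06.

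Genes of interferon response were examined beside the class I genes, which interferon is known to raise. Of 14 tested probes 5 were lower in BTBR, for Ifitm3, Oasl2, Gbp2, Isg15 and Bst2, and the median difference was -0.50. That is 35.7%, beside 5.44% of all tested probes called either way and 3.25% called lower. The strains did not overlap at 9 of the 14, beside 22.8% of all probes. The mean was higher in BTBR at 2 of the 14. Of these Mx2 did not overlap and was not called (0.43, adjusted p 0.18 in limma). The summed level of the list was 2.72, 2.95 and 2.83 in C57BL/6J and 2.37, 2.39 and 2.41 in BTBR, without overlap. Gbp2, a guanylate-binding protein, read -1.21, -1.01 and -1.10 against -1.83, -1.84 and -1.55. When any 1 of the 6 mice was left out, 0 to 2 probes of the list were called. With normexp correction, with no filter on dim probes and at 2-fold the count was 0, and with array median scaling, with the slide as a block and on slide 1 alone it was 2. The part of interferon response in the H2-T22 values was not tested. Among transcription regulators of class I, Nlrc5 differed by 0.17 (adjusted p 0.844) and Irf1 by -0.04 and 0.04 at its probes.

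The promoters of the member genes were scanned after these values were seen. The sequence GAAANNGAAA, the core of interferon-stimulated response elements, was searched on both strands of the 250 bases before the start in RefSeq (GRCm38.p6). It occurs in 3 of 35 member genes with a promoter sequence (8.57%), beside 2.98% of 32536 promoters. They are H2-T22, H2-T23 and B2m, and their stretches are printed with the match in capitals. A member gene counted if any of its promoters matched, while the share of all promoters counted each distinct sequence once. The shares are therefore of unlike units. Being lower in BTBR without overlap did not go with the match in all members. Both Psmb8 probes were lower without overlap and its promoter holds no match in this window, and of 3 B2m probes 1 was lower without overlap. H2-Q1, also lower without overlap, had no promoter sequence here.
H2-T22 (chr17:36042874-36042983, minus strand): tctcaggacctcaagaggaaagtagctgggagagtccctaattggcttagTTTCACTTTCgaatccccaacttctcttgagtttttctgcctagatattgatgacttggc
H2-T23 (chr17:36032766-36032875, minus strand): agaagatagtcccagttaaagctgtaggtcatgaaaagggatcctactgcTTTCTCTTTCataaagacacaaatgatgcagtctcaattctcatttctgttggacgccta
B2m (chr2:122147498-122147607, plus strand): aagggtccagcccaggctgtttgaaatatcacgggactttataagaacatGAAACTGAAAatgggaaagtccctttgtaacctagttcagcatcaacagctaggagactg
The match is a description of the reference strain's letters, and of these genes H2-T22 alone was called. CCAAT, read by NF-Y, was found in 30 of the 35 member genes and in 33.8% of all promoters, and in 8 of 8 class II genes. Member genes and promoters were counted in the same unlike units here. Many of the member genes are copies of one another, so their promoters are not separate cases.

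The wider pathway was read from 60 genes that load, cut, regulate or recognise MHC molecules or resemble them. Of 86 tested probes 9 were called, 5 higher and 4 lower in BTBR (10.5%, beside 5.44% of all), with a median difference of 0.01. Without C57BL/6J mouse 1 or 2 or BTBR mouse 1 or 3, each left out alone, 5 were called. Peptide loading and proteasome genes had 0 of 20 in limma, and 2 at an unadjusted p under 0.05. Class II processing had 3 of 14, regulators 1 of 32, MHC-like molecules 2 of 10 and receptors 3 of 10.

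Pirb, an inhibitory receptor for class I on myeloid cells and neurons, was higher in BTBR at both probes. Probe A_51_P445726 read -3.35, -3.49 and -3.22 in C57BL/6J and -1.38, -1.01 and -1.48 in BTBR. The strains lay far apart, with a difference of 2.07 ± 0.16 (adjusted p 0.000896 in limma), and the other probe gave 1.93 (adjusted p 0.00126). Pirb has close paralogs in the Pira genes, and their reads cannot be told apart here. Lilrb4a read -5.99, -6.27 and -6.19 in C57BL/6J and was not well above background in BTBR, at least 1.21-fold lower (adjusted p 0.0276). That call was lost without any 1 of the 6 mice (adjusted p 0.0597 to 0.101), while both Pirb calls held. In the authors' matrix the Pirb probes differed by 0.99 and 1.19 (adjusted p 0.00216 and 0.00311), and Lilrb4a by -0.04, not called (adjusted p 0.705).

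March1, a ubiquitin ligase that removes class II from the cell surface, was higher at both probes. Probe A_51_P121031 read 0.54, 0.45 and 0.30 against 1.01, 0.996 and 1.05, a difference of 0.59 (adjusted p 0.0294). The dimmer probe A_52_P64538 differed by 1.43 (adjusted p 0.00478), and by 0.31 in the authors' matrix (adjusted p 0.0129). Its relative March8 read 2.29, 2.46 and 2.27 against 1.78, 1.85 and 1.56, a difference of -0.61 (adjusted p 0.0421). The March8 call and that of A_51_P121031 were lost without any 1 of the 6 mice, at adjusted p of 0.0744 to 0.163 and 0.0602 to 0.141. Ctss, the protease that frees class II of Cd74, read 4.44, 4.41 and 4.50 against 3.79, 4.01 and 3.52. Its difference of -0.68 missed the threshold (adjusted p 0.052).

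Among MHC-like genes, Hfe, which binds transferrin receptor with B2m, had probes that disagreed. Probe A_52_P193022 read -2.79, -3.03 and -3.15 in C57BL/6J and was at background on all 3 BTBR arrays, at least 11.0-fold lower in BTBR (adjusted p 8.12e-05). Probe A_51_P505538 read -0.48, -0.76 and -0.73 against -0.21, -0.26 and -0.17, a difference of 0.44 in the other direction (adjusted p 0.101). Mill2, a class I-like molecule, read -3.96, -3.83 and -3.82 against -4.80, -4.65 and -4.95, a difference of -0.93 (adjusted p 0.00798). In the authors' matrix Mill2 differed by -0.19 and was not called (adjusted p 0.0543), and the first Hfe probe by -0.79 (adjusted p 0.00112).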

How the data were processed

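RNA of 6 mice was measured on 1-colour arrays. The deposited scanner files hold intensity values per spot, made with Feature Extraction 10.7.3.1 according to their headers (9.1 in the submitters' processing notes). The authors' matrix holds log2 values, deposited without a stated scaling or centring (array medians 8.82 to 8.83; correlation with the values used here 0.957 to 0.964), and served as an alternative only.

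From log2 of the background-subtracted signal the array's 75th percentile over 41174 probes was taken away. Outlier-flagged spots (54 to 107 per array) were left out where the probe had an unflagged spot on that array, and kept otherwise. Spots of a probe were averaged, and no spot was saturated. Probes well above background on at least 3 of 6 arrays (30011) were fitted one by one with limma 3.58.1 in R 4.3.3 (data.table version 1.17.8; lmFit and eBayes, two-sided, Benjamini-Hochberg over all 30011). The fit was tested on simulated data. The labels give 3 mice per strain, so p-values measure the spread between these mice.

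Where a probe was above background on no array of a strain, the fold is a bound: the mean of the measured strain over that of the dim one, where each dim array counts at its dimmest measurable signal or at the probe's own if higher. Summed levels of markers add the linear relative signals of the brightest tested probe of each gene, as log2.

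Named were all member probes called or with a bound, the brightest probe of each class and processing gene, and up to 4 probes each way by p of the pathway list and of the region; others are said to be chosen later. Members, classes and lists were chosen with earlier results of these data known, and the lists support nothing by themselves. Alternatives covered background correction, scaling, filter, probes per gene, flags, the authors' values, prior, array weights, a 2-fold threshold, slide, replicate number and mice left out. Positions are mm9 per the file headers; gene names and promoters come from RefSeq (GRCm38.p6), and no coordinates were converted. 1 gene of the pathway list is counted in its totals and not reported here by name.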

Additional observations from a re-analysis of the deposited data

How the results depend on the processing

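Of 1090 tested alternative values of the 53 members, 1071 kept their side of the threshold. The sign turned in 96, in 34 probes, none of them among the 3 called members. All probes called (1632) came to 170 with normexp correction, 1083 and 1135 with the brightest probe and the probe mean per gene, 3928 with array weights, 975 at 2-fold, and 1008 without C57BL/6J 3 and BTBR 2. Members called (3) came to 0, 2, 2, 8, 1 and 1 in these settings. Non-classical class I (3) came to 0 with normexp, 6 with array weights, and 1 at 2-fold and without C57BL/6J 3 and BTBR 2. Processing (0) came to 2 with array weights, both for B2m, where limma's weights stopped before convergence. Pathway probes called (9) came to 0 with normexp, 5 without the filter, 5 with the brightest probe per gene, 19 with array weights, 4 at 2-fold, 5 on slide 1 and 4 without C57BL/6J 3 and BTBR 2. Neighbours called in the region (3) came to 0 with normexp, 1 with the brightest probe per gene, 5 with trend and robust priors, 15 with array weights and 1 at 2-fold. Cd3d was -0.00249 with normexp, against 1.12. Leaving out 1 mouse in turn gave 858 to 1472 probes in all, 1 to 3 members, 1 to 3 non-classical, 5 to 6 pathway and 2 to 3 neighbour probes; the 3-mouse groups limit these counts. Classical class I and class II had 0 calls in every setting. The causes were not tested.

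The labels number the mice 1 to 3 in each strain. Deviations of same-numbered mice correlated at 0.03, -0.17 and -0.08, and those of unlike numbers at -0.21 to 0.27. The labels do not say whether the numbers are a pairing, and these correlations cannot decide it. With the replicate number as a block, 922 probes in all, 1 member (H2-Bl), 1 non-classical, 5 pathway, 0 interferon and 1 neighbour probe were called, and the H2-T22 probes had adjusted p of 0.0819 and 0.0722.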

Other observations

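The single C57BL/6J mouse with high H2-Q10 signal at A_51_P230267 and A_51_P230269 also stood alone for other genes known from liver, which were looked up after the H2-Q10 values were seen. Alb, serum albumin, read 0.54 there and at most -5.66 elsewhere. Ahsg read -0.57, Fabp1 -0.42 and Apoa1 -3.65 in that mouse, and each was well above background on that array alone. On that array 75 probes were well above background there alone and lay at least 2 log2 units above every other array. The same count was 36 to 64 on the other 5 arrays. The cause was not tested.

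Markers of choroid plexus, which is not part of the cortex, were highest in C57BL/6J mouse 1, with a summed level of 1.86. BTBR mouse 3 was next at -0.61, and the other mice read -2.20 to -1.65. The median deviation of the 4 tested probes was 2.77 and 0.50 in these mice and -1.22 to -0.56 in the others. Neither C57BL/6J mouse 1 nor BTBR mouse 3 was highest or lowest in H2-Aa, H2-Ab1, H2-Eb1 or Cd74. BTBR mouse 3 was the highest mouse at the H2-L, H2-Q2 and H2-K1 probes whose values are given above. The part of choroid plexus in the member values was not tested. Cortical neuron markers had 0 of 8 probes called, and endothelium 0 of 6. The mean was higher in BTBR at all 8 cortical neuron probes. Their summed level was lowest in C57BL/6J mouse 3, at 3.62 against 3.75 to 4.44 in the other mice. The median deviation of these probes was -0.63 in that mouse and -0.11 to 0.27 in the others. The part of this in the member values was not tested.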
